A study of Mus musculus with 16 samples.

Results

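The mouse ATG8 family was described here through its 5 members in the deposited tables, Map1lc3a, Map1lc3b, Gabarap, Gabarapl1 and Gabarapl2, in CD8+ T cells sorted by an LC3-GFP reporter. The members were taken by gene symbol, 5 of 13275 genes in the RNA count table. In the chromatin data they were taken by position, as peaks overlapping the gene body extended by 2 kb at each end, which gave 35 of 223740 peaks in vitro and 66 of 304644 peaks in vivo. All 5 genes passed the filter on low counts, which left 12022 genes for testing.

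ATG8 proteins are small ubiquitin-like proteins. An ATG4 protease trims them and an E1-E2-E3-like cascade joins them to phosphatidylethanolamine in the growing autophagosome membrane, where they recruit cargo receptors and factors for fusion with lysosomes. The LC3 subfamily, here Map1lc3a and Map1lc3b, and the GABARAP subfamily, here Gabarap, Gabarapl1 and Gabarapl2, bind overlapping but not identical partners. The reporter follows an LC3 protein rather than any transcript, and in T cells autophagy is known for its part in survival, memory and metabolism.

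The cells came from Pmel-LC3-GFP-RFP mice, which carry a T cell receptor against a melanocyte antigen and a fluorescent LC3 reporter. Purified T cells were stimulated for 3 days through CD3 and CD28 (2 µg/ml of each antibody, with IL2 at 100 IU/ml), and every group had 24 h of carbon monoxide (CO) before sorting, so no comparison here bears on CO itself. RNA was sequenced in 2 LC3-GFP positive and 2 LC3-GFP negative libraries, and accessible chromatin (ATAC-seq, which maps sites cut by the Tn5 transposase) in another 2 positive and 2 negative libraries of sorted cells, named in vitro. The in vivo ATAC libraries were 4 from mice given positive cells and 4 from mice given negative cells. Those C57BL/6 mice had been inoculated with B16-F10 melanoma cells 12 days before receiving the T cells, and Vβ13+CD8+ cells were sorted from each tumour 15 days after transfer. Positive and negative in vivo thus name the cells as transferred, not their fluorescence in the tumour. Nothing in the labels ties the RNA and in vitro replicates to separate animals or cultures, and their p-values reflect no more than the scatter of these samples, possibly technical.

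RNA totals were 17557628 and 15605902 counts in positive replicates 1 and 2, against 15850657 and 14567540 in the negative replicates. ATAC libraries held 27406 to 63761 peaks. All 12 T cell markers were measured in the RNA (3621 and 3638 as their summed CPM, counts per 1000000, in positive cells, against 3938 and 3969 in negative cells), where 6 fell and 0 rose, and 10 of their 12 start sites lay under a peak in all 12 ATAC libraries, with Cd2 in 10 and Cd3d in 7. Of 6 B cell markers tested, 5 rose in positive cells, with a summed level of 15.0 and 13.5 CPM, against 4.47 and 6.01 CPM in negative cells. Of 7 B cell start sites placed, 5 lay under a peak in all 4 in vitro libraries and 2 in any in vivo library. Of the CD4 T cell markers Cd4 rose (4.40 and 3.39 CPM in positive cells, against 0.971 and 0.699 CPM in negative cells) and Zbtb7b fell (54.2 and 50.2 CPM, against 76.2 and 69.5 CPM). Of 4 genes listed as NK cell markers 2 were in the count table, and both fell. Klrb1c was at 1.56 and 2.95 CPM in positive cells, against 5.76 and 7.69 CPM in negative cells. The Klrb1c start site lay under a peak in 6 in vivo and 0 in vitro libraries. Eomes was at 34.5 and 34.3 CPM, against 98.5 and 89.3 CPM, and its start site lay under a peak in 11 of the 12 ATAC libraries. Whether Eomes RNA came from the T cells themselves or from NK cells cannot be told apart here. The mast cell marker Kit fell, at 19.8 and 19.3 CPM in positive cells, against 49.1 and 46.5 CPM in negative cells. Of 4 myeloid markers, summing to 4.79 and 5.21 CPM in positive cells, against 8.48 and 8.25 CPM in negative cells, Mpeg1 rose (1.67 and 1.07 CPM, against 0 and 0.0699 CPM), Cd68 fell (1.78 and 2.26 CPM, against 6.02 and 5.73 CPM) and 2 were not called. Of 6 myeloid start sites placed, 4 lay under a peak in all in vitro libraries, 2 in all in vivo libraries and 6 in any in vivo library. No erythroid marker was tested, and none of 4 melanoma or stromal markers was called. Counts of Rn45s, the precursor of ribosomal RNA, made up 1.43% and 1.51% of positive libraries, against 3.20% and 3.58% in negative libraries. The part of these differences in the results was not tested, and in bulk RNA fewer cells of a type and less RNA per cell cannot be told apart.

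Of the 5 transcripts 1 passed the test, Gabarap, and it fell in positive cells. It averaged 83.1 ± 3.38 CPM in positive cells and 100.1 ± 4.05 CPM in negative cells (SD, n = 2 each), so that negative cells had 1.21 times as much. The other members, Map1lc3b among them, did not pass the test, and their best estimates lay between a decrease of 0.55 (Map1lc3a) and an increase of 0.15 (Gabarapl2) on the log2 scale. Across all genes 25.0% were called, 13.6% lower and 11.3% higher in positive cells, so 1 lower member in 5 is near that background. The summed level of the family was 220.3 and 225 CPM in positive libraries, against 239 and 255 CPM in negative libraries.

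Of the LC3 subfamily, Map1lc3b encodes LC3B, the form most often followed as an autophagosome marker. It lies at chr8:121590468-121598048 on the plus strand (mm10, as in the count table, where the end is the base after the last). It was measured at 57.8 and 54.5 CPM in positive libraries, against 58.3 and 61.5 CPM in negative libraries. Positive replicate 1 stood just under negative replicate 1, so the groups were apart by less than the spread within either. Its log2 difference was -0.09 (SE 0.07, edgeR quasi-likelihood test, Benjamini-Hochberg adjusted p = 0.367), with a 95% interval of -0.23 to 0.05. That interval leaves room for a level between 0.850 and 1.04 times that of negative cells. Whether reads of the reporter's own LC3 sequence were counted under Map1lc3b is not given in the sources used here.

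Map1lc3a encodes LC3A, the other LC3 form listed, and lies at chr2:155276364-155278074 on the plus strand. It had few reads, 29 and 36 counts in positive libraries, against 53 and 31 in negative libraries. Scaled by library size these were 1.62 and 2.26 CPM in positive cells, against 3.43 and 2.17 CPM in negative cells. Negative replicate 1 was the highest and the other 3 libraries lay close together, so the groups overlapped. The log2 difference was -0.55 (SE 0.33, edgeR, adjusted p = 0.253), with a 95% interval of -1.24 to 0.15. From the summed counts alone the ratio was 0.680 (exact 95% interval 0.484 to 0.951), an interval that covers counting error only and not the spread between libraries. The estimate moved with single libraries, from -0.31 without positive replicate 1 and -0.79 without positive replicate 2 to -0.17 without negative replicate 1 and -0.83 without negative replicate 2, and none of these passed the test.

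**Figure D1:**
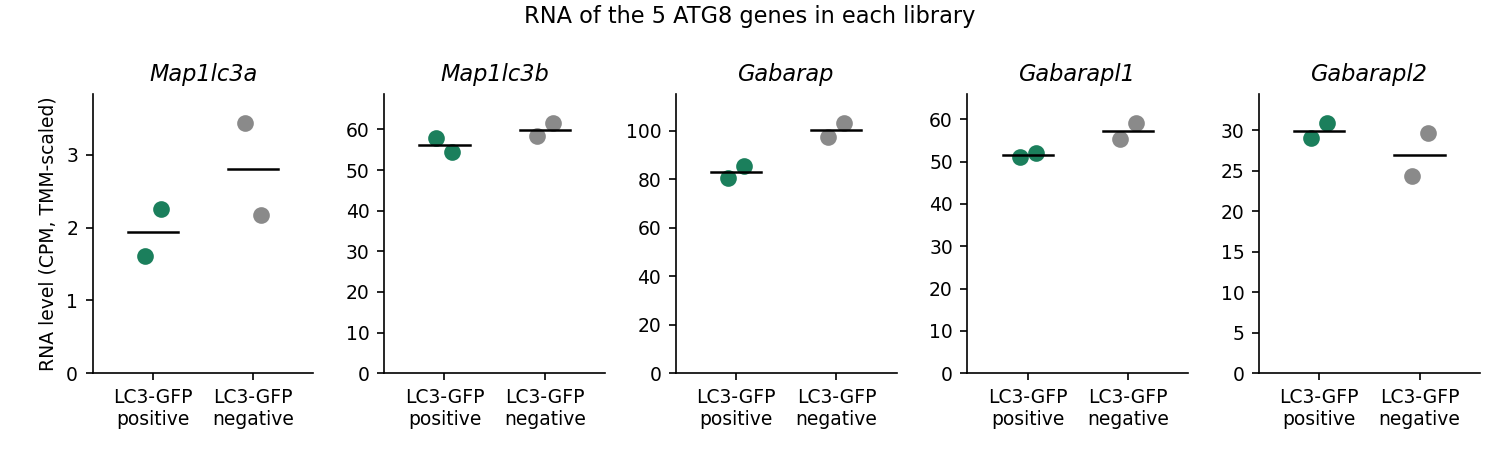
RNA level of each ATG8 gene in CPM (counts per 1000000, on TMM-scaled library sizes, each axis from 0) in the 2 LC3-GFP positive and 2 LC3-GFP negative libraries; each point is a library and the bar is the group mean. Both positive libraries lie below both negative libraries for Map1lc3b, Gabarap and Gabarapl1, and the groups overlap for Map1lc3a and Gabarapl2.

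Of the GABARAP subfamily, Gabarap encodes the founding GABARAP protein, first known as a linker of GABA type A receptors to microtubules. It lies at chr11:69991370-69994950 on the plus strand. Its level was 80.7 and 85.5 CPM in positive libraries, against 97.3 and 103 CPM in negative libraries. Both positive libraries were below both negative ones, by more than the spread within either group. The log2 difference was -0.27 (SE 0.06, edgeR, adjusted p = 0.00253), with a 95% interval of -0.39 to -0.15. The call depends on positive replicate 1: without it the log2 difference was -0.23 and the adjusted p = 0.0646, and over all alternatives the adjusted p ran between 2.54e-05 and 0.0646.

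Gabarapl1, also known as GEC1, lies at chr6:129533192-129542332 on the plus strand. It was at 51.1 and 52.0 CPM in positive libraries, against 55.4 and 59.0 CPM in negative libraries. The groups did not overlap here either, but the gap between them was similar to the spread among the negative libraries. The log2 difference was -0.15 (SE 0.07, unadjusted p = 0.0429 and adjusted p = 0.123 by edgeR), with a 95% interval of -0.29 to -0.01. Over all genes tested, 31.0% had both positive libraries below both negative ones and 30.6% had both above, and of the 5 members 3 had the first pattern and 0 the second.

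Gabarapl2 encodes GATE-16, a member also known for work in transport within the Golgi, and lies at chr8:111940703-111952916 on the plus strand. It was at 29.1 and 30.8 CPM in positive libraries, against 24.3 and 29.7 CPM in negative libraries. Negative replicate 1 was the low library and negative replicate 2 lay between the positive ones. The log2 difference was 0.15 (SE 0.10, edgeR, adjusted p = 0.293), with a 95% interval of -0.06 to 0.36. This value depended on which negative library was kept: without negative replicate 2 it was 0.30 with adjusted p = 0.0293, and without negative replicate 1 it was 0.01 with adjusted p = 0.946.

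**Figure D2:**
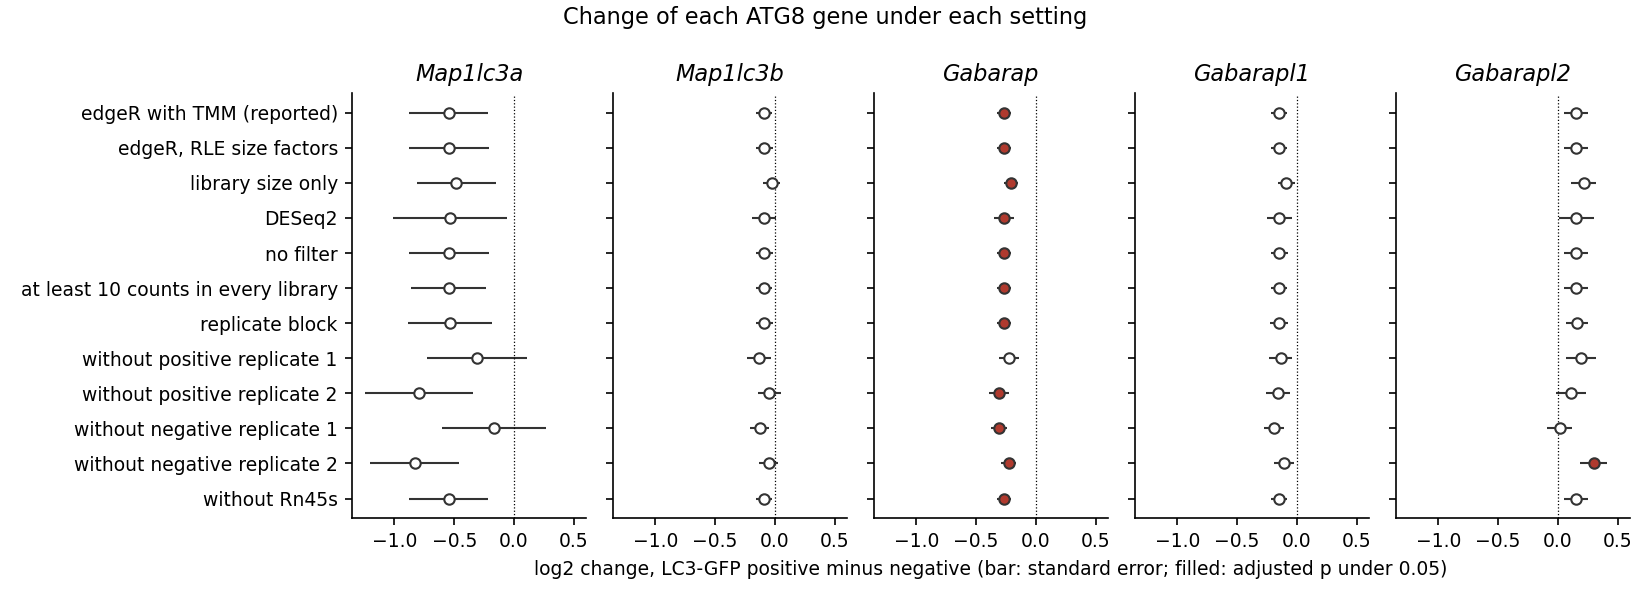
Log2 difference of each ATG8 gene, positive minus negative, as reported (top) and under each alternative, with the standard error as bars and filled points where the adjusted p was under 0.05. Gabarap is filled except without positive replicate 1, where it is -0.23, and Gabarapl2 is filled only without negative replicate 2, where it is 0.30.

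Because the reads of a library share its depth, ratios between members do not depend on how libraries were scaled. The ratio of Gabarapl2 to Gabarap counts was -1.47 in each positive library on the log2 scale, against -1.999 and -1.797 in negative libraries, a difference of 0.43. The ratio of Map1lc3b to Gabarap was -0.48 and -0.65 in positive libraries, against -0.74 in each negative library, a difference of 0.18. Relative to Gabarap, then, these members stood higher in both positive libraries than in either negative one. Gabarap is the member called lower in these same libraries, so ratios over it carry that fall. The ratio of Gabarapl1 to Gabarap was -0.66 and -0.72 in positive libraries, against -0.81 and -0.80 in negative libraries, a difference of 0.12. Gabarapl2 also stood higher relative to Gabarapl1 (difference 0.31) and to Map1lc3b (difference 0.25), with no overlap between groups, while the ratio of Map1lc3b to Gabarapl1 and all ratios to Map1lc3a overlapped. With 2 libraries a group the smallest two-sided exact permutation p is 0.333, so these ratios are given without a test. Groups without overlap are common here: 30.6% of single genes had both positive libraries above both negative ones and 31.0% both below. The share over pairs of genes was not computed. The counts are not scaled by transcript length, and the ratios do not rank the members by level.

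**Figure D3:**
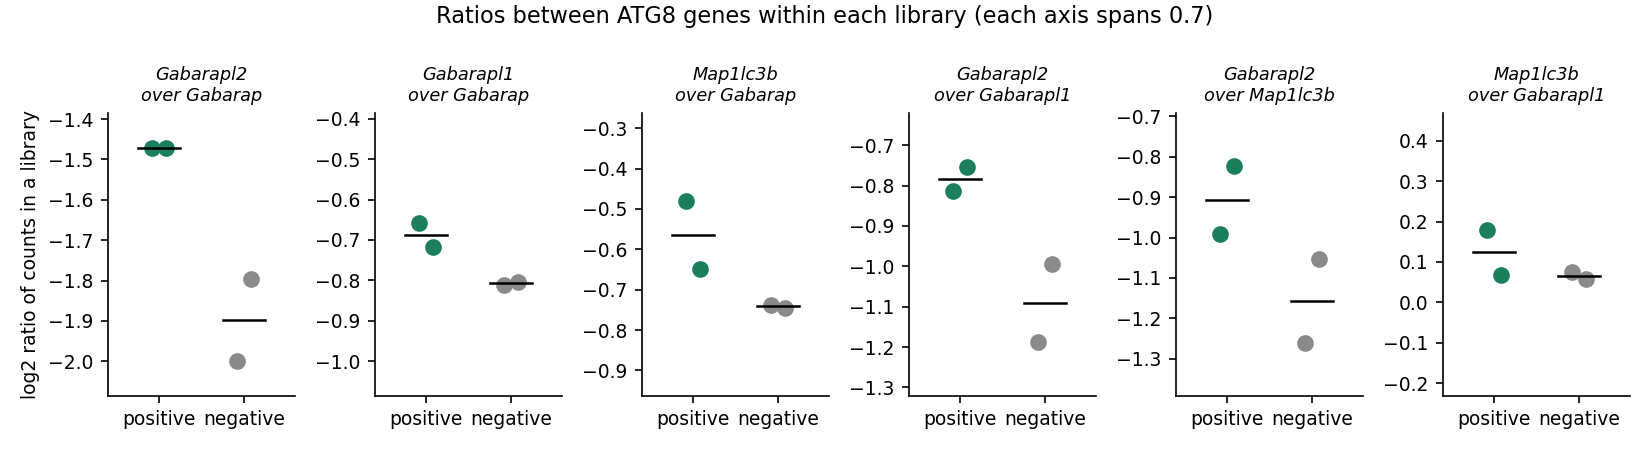
Log2 ratio of the counts of pairs of ATG8 genes within each library, 2 positive and 2 negative, with the group mean as a bar; every axis spans the same distance. The 3 ratios drawn with Gabarapl2 on top differ between groups by 0.25 to 0.43, and the ratio of Map1lc3b to Gabarapl1 overlaps.

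For each member the 3 genes with the most similar pattern over the 4 libraries were found among genes of similar level, by the Euclidean distance between mean-centred log2 CPM. For Gabarap these were Dennd2d, Gng2 and Ppp1r16b, at distances of 0.029 to 0.044 among 3631 candidates. All 3 were called lower in positive cells, which follows from choosing them by the pattern of Gabarap. For Map1lc3b they were Atxn1l, Ncf1 and Rcan3, at 0.015 to 0.020 among 4317, and for Gabarapl1 Klk8, Camk1d and Fam169b, at 0.012 to 0.016 among 4349. For Gabarapl2 they were Ufd1, Specc1 and Mgst2, at 0.028 to 0.039 among 4072, none of them called. For Map1lc3a, whose low counts leave more noise, the nearest were Cacnb1, C030037D09Rik and Dok7, at 0.10 to 0.15 among 1497. With 4 libraries such a likeness is loose, and a call shared with a member is no separate result.

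Over all genes tested 13.6% were called lower and 11.3% higher, and the counts of the pathway lists are to be read against those shares. Of 12 genes for ATG4 proteases and the conjugation machinery, 0 were called higher and 1 lower, with a median log2 difference of 0.02, against 0.0023 over all genes tested. The gene called was Tecpr1, whose protein binds the ATG12-ATG5 conjugate and was reported to form an alternative E3 with it. Tecpr1 had 162 and 160.3 CPM in positive libraries, against 204 and 221 CPM in negative libraries (log2 difference -0.40, SE 0.05, adjusted p = 1.69e-05 by edgeR). Atg4b, the main ATG4 protease, was at 40.0 and 41.3 CPM in positive libraries, against 44.1 and 39.1 CPM in negative libraries. Of 19 genes of the initiation and phosphoinositide step, 0 were called higher and 3 lower (median -0.09), close to the 13.6% lower over all genes. With library size as the only scaling 2 were higher and 1 lower, where 28.7% of all genes were called. With DESeq2 0 were higher and 1 lower, where 13.8% of all genes were called. Atg9a, the lipid scramblase of the early vesicles, averaged 61.2 ± 0.823 CPM in positive cells and 79.4 ± 9.11 CPM in negative cells (log2 difference -0.38, adjusted p = 0.000885). Wipi1, a phosphoinositide reader (-0.66, adjusted p = 0.0354), and Ambra1, a Beclin 1 partner (-0.17, adjusted p = 0.0357), were the others.

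Of the genes for cargo receptors, which ATG8 proteins bind, 22 of 24 listed were tested, 1 was called higher and 4 lower, with a median of -0.07. Over all genes 25.0% were called, with 13.6% lower and 11.3% higher. Sqstm1, which encodes the receptor p62, fell to 121 and 116 CPM in positive libraries, against 186 and 178 CPM in negative libraries (log2 difference -0.62, SE 0.05, edgeR, adjusted p = 9.76e-08). The mitophagy receptors Bnip3 (-0.30, adjusted p = 6.22e-05) and Bnip3l (-0.22, adjusted p = 0.00165) fell as well, as did Calcoco1 (-0.43, adjusted p = 0.0374), which without negative replicate 2 was at -0.23 with adjusted p = 0.312 and lost the call in 5 of 11 alternatives. Retreg1, a receptor for fragments of the endoplasmic reticulum, rose to 79.3 and 76.9 CPM in positive libraries, against 57.7 and 65.5 CPM in negative libraries (0.34, adjusted p = 0.00117). The receptors Nbr1, Optn and Tax1bp1 were not called, with log2 differences of 0.01, -0.07 and 0.04.

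Of 22 tested trafficking and fusion factors, 1 was called higher and 2 lower, with a median of 0.02, below the 25.0% called over all genes. With DESeq2 0 were called higher and 0 lower, where 13.8% of all genes were called. Rab7, a late endosome GTPase, rose by 0.14 (adjusted p = 0.0293 by edgeR), and Fyco1, an adaptor to kinesin, fell by 0.20 (adjusted p = 0.0363). Mapk8ip1 (JIP1), a scaffold that binds LC3, fell on few reads, 5 summed counts in positive libraries against 21 in negative ones, a ratio of 0.209 (exact 95% interval 0.0616 to 0.570, counting error only). Of 10 transcription factors reported to act on ATG8 genes, 0 were called higher and 3 lower, with a median of -0.14, where 13.6% of all genes were lower. Ddit3 (CHOP) fell to 9.86 and 11.5 CPM in positive libraries, against 22.3 and 21.1 CPM in negative libraries (-1.02, adjusted p = 8.79e-06). Foxo1 (-0.20, adjusted p = 0.00444) and Atf4 (-0.16, adjusted p = 0.00988) fell by less, and Tfeb was not called (-0.09, adjusted p = 0.625). Of the 15 pathway genes called outside the family, Sqstm1, Bnip3, Bnip3l, Retreg1, Atg9a, Tecpr1 and Ddit3 were called under every alternative and 8 lost the call under at least 1. With library size as the only scaling, 65.1% of all called genes were higher in positive cells, against 45.4% as reported, and the median of all genes was 0.06. The counts of the lists also moved with 1 library left out, as did the counts over the whole table. Such moves are not read as results about the lists.

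**Figure D4:**
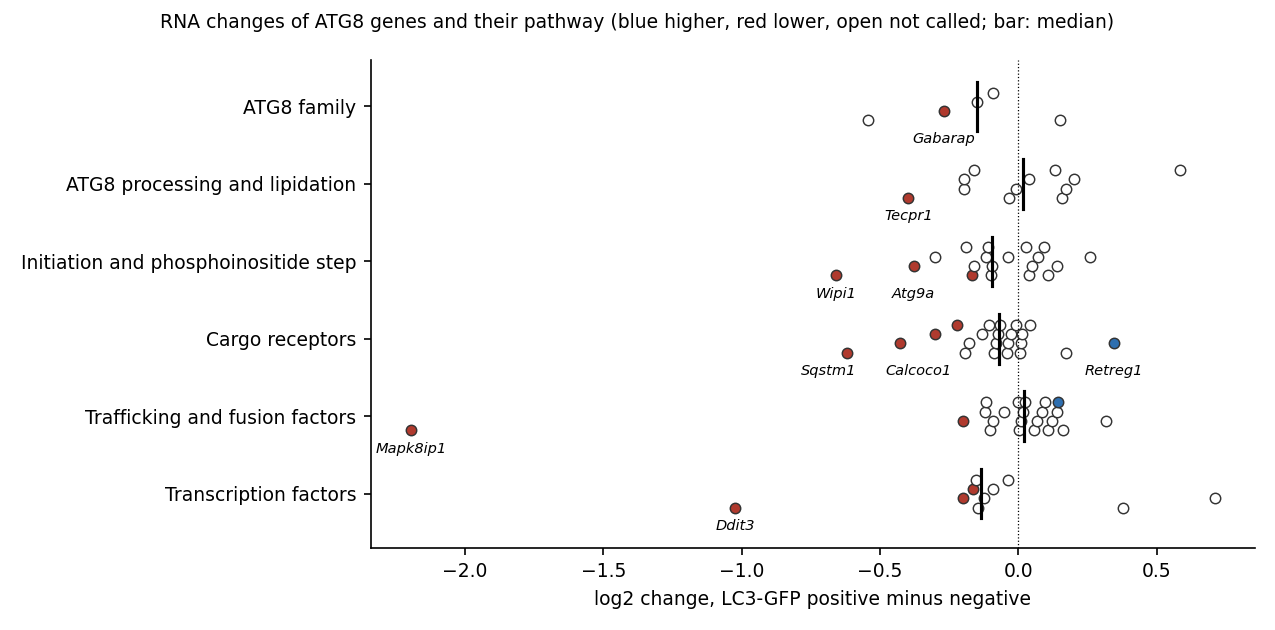
Log2 difference, positive minus negative, of the tested genes in the ATG8 family and 5 lists of pathway genes; each point is a gene, filled where the adjusted p was under 0.05, and the bar is the median of the list. Most called genes lie left of 0, with Retreg1 (0.34) and Rab7 (0.14) to the right.

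Chromatin at the family's start sites was open in every library. Each of the 5 genes had a peak over its start site in all 4 in vitro and all 8 in vivo libraries, as had 83.5% of all listed genes in vitro and 77.9% in vivo. Ranked by the authors' -log10 q within a library's own list, the Map1lc3a peak stood between percentile 87.8 and 99.96 and the Gabarapl2 peak between 79.9 and 98.8. The Map1lc3b peak ranged over percentiles 77.4 to 96.0, the Gabarapl1 peak 65.8 to 93.0 and the Gabarap peak 64.2 to 92.0. Positive and negative libraries overlapped in this percentile for each member in both experiments, except for Gabarapl2 in vitro (97.67 and 94.95 in positive libraries, against 92.83 and 94.63 in negative libraries). The fold enrichment of that same peak stood the other way, at 6.17 and 6.45 in positive libraries, against 6.63 and 7.15 in negative libraries. Other in vitro values had no overlap either. Peak length was greater in positive libraries for Map1lc3b and Gabarapl1, and in negative libraries for Gabarap and Gabarapl2. The Gabarapl1 summit lay further past the start in negative libraries. The Map1lc3b fold enrichment was 5.16 and 5.55 in positive libraries, against 6.17 and 6.83 in negative libraries. The Gabarapl1 pileup was 82 and 80 in positive libraries, against 74 and 70 in negative libraries. How often this happens over all start-site peaks was not computed. With 2 libraries a group the smallest two-sided exact permutation p is 0.333, so no result about the members is drawn from it.

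The promoter sequences under these peaks are shown because a peak reached each of the 4 that could be matched in every library. They are the 250 bases before the start site from RefSeq (GRCm38.p6, the assembly that mm10 names), on the plus strand and 5′ to 3′, at chr8:121590188-121590437 for Map1lc3b, chr11:69991120-69991369 for Gabarap, chr6:129532942-129533191 for Gabarapl1 and chr8:111940453-111940702 for Gabarapl2. The RefSeq start of Map1lc3b lies 30 bases before the start in the count table, and the other starts are the same. Capitals mark matches to a searched motif on either strand, with CCGCCC and CGTCA as the other strand's form of GGGCGG and TGACG.
Map1lc3b: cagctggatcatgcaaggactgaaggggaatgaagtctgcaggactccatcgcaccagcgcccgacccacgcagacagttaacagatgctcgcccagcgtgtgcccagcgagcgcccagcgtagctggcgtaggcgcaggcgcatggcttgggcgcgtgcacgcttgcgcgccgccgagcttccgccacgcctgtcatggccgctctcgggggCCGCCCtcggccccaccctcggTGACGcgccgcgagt
Gabarap: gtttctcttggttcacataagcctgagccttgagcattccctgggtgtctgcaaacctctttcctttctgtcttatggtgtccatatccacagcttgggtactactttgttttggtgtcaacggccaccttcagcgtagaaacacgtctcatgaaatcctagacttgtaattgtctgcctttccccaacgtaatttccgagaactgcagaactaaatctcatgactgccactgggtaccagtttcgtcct
Gabarapl1: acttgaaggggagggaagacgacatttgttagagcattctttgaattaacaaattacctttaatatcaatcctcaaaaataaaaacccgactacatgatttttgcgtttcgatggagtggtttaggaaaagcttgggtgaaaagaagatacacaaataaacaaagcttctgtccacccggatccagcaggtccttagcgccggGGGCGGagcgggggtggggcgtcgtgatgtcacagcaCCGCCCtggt
Gabarapl2: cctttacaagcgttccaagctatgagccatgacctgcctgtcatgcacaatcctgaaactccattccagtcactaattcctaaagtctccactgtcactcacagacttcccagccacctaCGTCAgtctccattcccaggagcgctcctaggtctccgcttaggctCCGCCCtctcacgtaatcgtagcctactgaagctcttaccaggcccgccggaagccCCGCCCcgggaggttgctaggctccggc

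The promoters differed in composition. Map1lc3b was 69.6% G and C with 30 CG pairs, against a median of 52.4% and 6 CG pairs over 32851 mouse promoters of the same length, while Gabarap was 46.4% with 6 CG pairs. Gabarapl1 had 46.8% and Gabarapl2 57.2%, each with 12 CG pairs. The GC box GGGCGG, in 32.7% of all promoters, was present at 1 place in Map1lc3b and at 2 places each in Gabarapl1 and Gabarapl2. The cAMP response core TGACG, in 17.8% of all promoters, began at position -15 from the start site in Map1lc3b and at -130 in Gabarapl2. No match to the E-box CACGTG (6.02% of all promoters), the FOXO element GTAAACA (3.17%), the C/EBP-ATF element TGATGNAA (3.45%), the CCAAT box (33.8%) or the TATA box TATAAA (12.4%) was found in any of the 4, and Gabarap held none of the 7 motifs. The motifs found did not overlap each other. Only the letters given were searched, so variant forms of a motif would be missed. A peak covered the whole stretch in all 12 libraries for Gabarap and Gabarapl2, in 11 for Gabarapl1 and in 9 for Map1lc3b, and touched it in all 12 for each. The exceptions were in vivo, positive replicates 1, 2 and 3 for Map1lc3b and negative replicate 1 for Gabarapl1. How often such a pattern occurs over all promoters was not computed.

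In vitro, the windows of the 5 genes held 10 merged regions, and 8 of them were found in all 4 libraries, against 53.8% of all merged regions. The start-site regions of all 5 genes were among the 8, and 83.5% of all genes had a start-site peak in every library. The shares are thus not of like regions. Of the regions not found in all 4 libraries, 1 was positive-only, meaning found in both positive libraries and neither negative one, and 0 were negative-only. Over all merged regions 8.03% were positive-only and 3.32% negative-only, so 1 in 10 is near the background. The positive-only region lay inside the body of Gabarapl2 at chr8:111946850-111947597, 6147 to 6893 bases past the start site. Its peak had a pileup of 35 and a fold enrichment of 4.45 in positive replicate 1, and a pileup of 18 and a fold enrichment of 4.22 in positive replicate 2, by the authors' caller. By -log10 q these were middling to low peaks, at percentiles 50.3 and 26.3 of their libraries. A second region in Gabarapl2, at chr8:111951079-111951604, was found in positive replicate 1 alone. The number of peaks in the Gabarapl2 window was thus 3 and 2 in positive libraries, against 1 in each negative library (two-sided exact permutation p = 0.333, the smallest that 2 against 2 allows). Positive libraries exceeded negative ones in this way in 10.3% of all genes, and the reverse held in 3.50%. The other members had equal numbers in all 4 libraries, 1 for Map1lc3a and 2 each for Map1lc3b, Gabarap and Gabarapl1. The whole lists held 63761 and 53869 peaks in positive libraries, against 56476 and 49634 in negative ones, and with every list held to 49634 peaks the difference at Gabarapl2 was 1 peak in place of 1.5.

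In vivo, the same windows again held 10 merged regions, and 7 were found in all 8 libraries, against 29.0% of all merged regions. The start-site region of every member was among the 7, and 77.9% of all genes had a start-site peak in every library. None of the 10 regions was positive-only or negative-only, calls made for 0.691% and 1.04% of all regions. The number of peaks in the Map1lc3b window was 2, 1, 2 and 2 in positive libraries, against 3, 2, 2 and 2 in negative libraries (exact permutation p = 0.571). In the Gabarap window it was 2, 2, 2 and 3 in positive libraries, against 2, 2, 3 and 3 in negative libraries (exact p = 1.0). The groups overlapped in every window, while 0.301% of all genes had more peaks in every positive library than in any negative one and 1.56% fewer. In the Gabarapl1 window it was 1 in each positive library, against 1, 1, 1 and 2 in negative libraries (exact p = 1.0). In the Gabarapl2 window it was 2 in each positive library, against 1, 1, 2 and 2 in negative libraries (exact p = 0.429). The difference at Gabarapl2 follows from where the window ends: the second peak crosses the window's edge in 6 libraries, and the region it belongs to was found in all 8. The second Gabarapl1 peak of negative replicate 4 also crosses the window's edge, and its region was found in 3 positive and 3 negative libraries. The third peaks in the Gabarap window cross its edge and lie in a region found in all 8 libraries. The smallest p that 4 against 4 allows is 0.0286. The Map1lc3a window held 1 peak in every library.

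Away from the start sites the members differed in what their windows held. The second Gabarap region, found in all 12 libraries, began 3720 bases past the start and lay over the start site of the next gene, Phf23, at 4396 bases. Phf23 RNA was not called (log2 difference 0.15, adjusted p = 0.118), nor was that of Ctdnep1 upstream (-0.08, adjusted p = 0.408). The second Map1lc3b region, 7896 to 9035 bases past the start, covered the 3′ end of Zcchc14 on the other strand and was found in 4 of 4 in vitro and 7 of 8 in vivo libraries, missing from the list of in vivo positive replicate 2. Gabarapl1 had a region 10798 to 12697 bases past its start, beyond its 3′ end, in 4 of 4 in vitro and 6 of 8 in vivo libraries, missing from in vivo positive replicate 1 and negative replicate 2. The Gabarapl2 region at 13798 to 15684 bases, likewise beyond the gene, was found in all 12. Zcchc14 on the minus strand and the long noncoding gene 1700101I11Rik at the Gabarapl1 start overlap the RefSeq records of those members. The handling of strand in the RNA counting is not given, so their reads cannot be told apart.

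**Figure D5:**
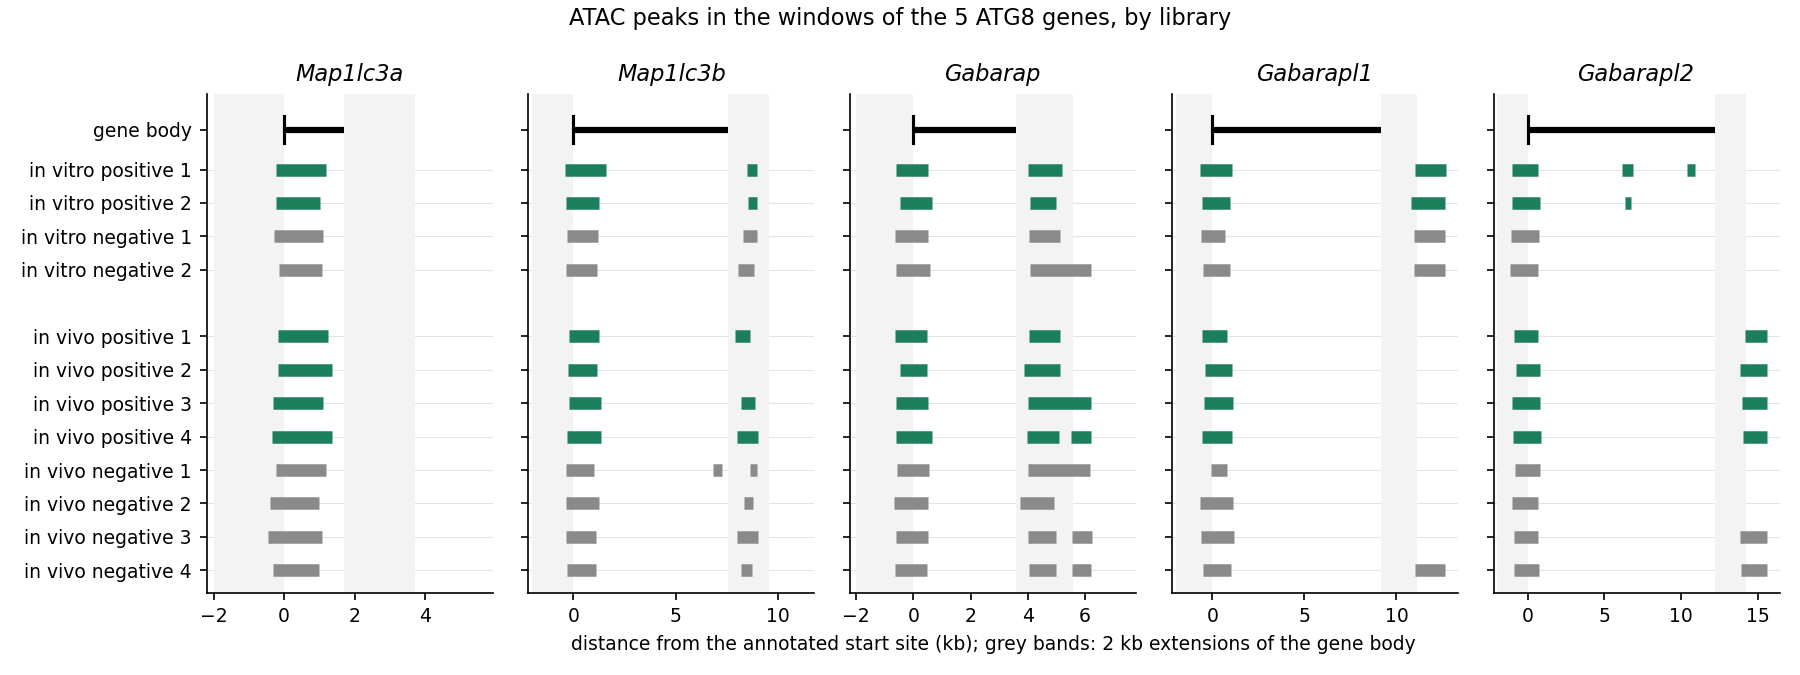
ATAC peaks (bars) that overlap the window of each ATG8 gene, by distance from the annotated start site in kb, with a row for each of 12 libraries, positive above negative in each experiment; the black line is the gene body and the grey bands are its 2 kb extensions. Every row has a peak over each start site, and peaks inside the body of Gabarapl2 appear in the 2 in vitro positive rows and no other; peaks that lie wholly beyond a window are not drawn.

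Set side by side, the in vivo and in vitro lists had the same start-site regions. Of regions merged over all 12 libraries, 0 in the windows were found in all in vivo and no in vitro libraries (0.173% of all regions) and 0 in all in vitro and no in vivo libraries (4.76%). The regions inside Gabarapl2 were found in 0 of 8 in vivo and, for the first of them, 2 of 4 in vitro libraries. The in vivo lists were mostly shorter, the cells were sorted from tumours 15 days after transfer and the tables were called separately, so the experiments were not tested against each other, and a peak missing from a list does not show closed chromatin.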

How the data were processed

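RNA levels were measured in 4 libraries and accessible chromatin in 12, of 16 in all. Samples were grouped by the cell population in the labels. The deposited RNA table holds estimated counts per gene, not scaled, for which the submitters' processing notes name Partek, STAR and DESeq2, with mm10. Between 22.5% and 23.8% of values were not whole, and estimated counts were rounded here. The deposited ATAC tables list peaks called in each library, for which the submitters' processing notes name Partek, MACS2, cutadapt and BWA, with mm10. Per the file headers, the authors' values per peak are the pileup signal, the fold enrichment over background, and both p-value and q-value as -log10, used to describe, rank or filter peaks within a list, and set side by side between libraries as a description only, since they depend on depth. Positions and lengths in base pairs are as deposited. The sources used here do not give tool versions, the counting method, strandedness or any shift for the Tn5 cut. Reads of near-identical copies, such as the Map1lc3 and Gabarapl2 pseudogenes in RefSeq, could have been split in ways that are not known.

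Genes were kept by filterByExpr, scaled by TMM and tested by edgeR 4.0.16's quasi-likelihood test (glmQLFit, glmQLFTest; R 4.3.3) over all genes, called at a Benjamini-Hochberg adjusted p under 0.05. CPM are counts per 1000000 on TMM-scaled sizes. The replicates of a group differed by more than sampling noise (chi-square per degree of freedom 2.13 in positive and 4.39 in negative cells). Within an experiment, peaks sharing 1 bp or more were merged. Numbers of peaks per window were compared between groups by exact permutation over libraries (two-sided). The lists carry no ATAC read depth, and the number of peaks is given in its place. Intervals on ratios of counts cover counting error only. The alternatives were DESeq2 1.42.0, RLE and library size scaling, other filters, a block on the replicate number, leaving out each library or Rn45s, stricter, equal-length or differently merged peak lists, and 5 kb windows. Scripts were tested on simulated data.

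All members were named. From each pathway list up to 3 genes past the threshold with the largest change were named by rule. Atg4b, Nbr1, Optn, Tax1bp1, Tfeb, Bnip3, Bnip3l, Kit, Klrb1c, Eomes, Cd4, Zbtb7b, Mpeg1 and Cd68 were added after their values were seen. The members and lists were chosen with earlier results of these data known.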

Additional observations from a re-analysis of the deposited data

Results flagged for a closer look

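Of 70 groups of 4 in vivo libraries, made of the number of peaks and the start-site peak values of each member, 7 held a library apart from the rest of its group by Dixon's test. Of these, 4 were whole numbers of peaks in which the other 3 libraries were equal, so that a difference of 1 is enough, and the test's usual rate does not apply to them. The other 3 came from 60 groups of peak values, where chance gives about 1 in 20. The Map1lc3b window held 1 peak in positive replicate 2 where the other positive libraries held 2, and 3 peaks in negative replicate 1 where the other negative libraries held 2. The Gabarap window held 3 peaks in positive replicate 4, against 2 in the other positive libraries. The Gabarapl1 window held 2 peaks in negative replicate 4, against 1 in the other negative libraries. That second peak crosses the window's edge too, and its region was found in 3 positive and 3 negative in vivo libraries. The summit of the Map1lc3a start-site peak lay 205 bases past the start in positive replicate 1, and 280 to 290 bases past it in the other positive libraries. The Map1lc3b start-site peak had a -log10 q of 59.3 in negative replicate 1, against 38.2 to 39.6 in the other negative libraries, a value that also depends on read depth, which is unknown. The Gabarap start-site peak was 1204 bases long in negative replicate 2, against 1106 to 1121 in the other negative libraries. No cause was tested.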

How the results depend on the processing

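Over 11 alternatives no member's log2 difference reversed, and 53 of 55 values kept their direction and side of the threshold. The exceptions were Gabarap without positive replicate 1 (-0.23, adjusted p = 0.0646) and Gabarapl2 without negative replicate 2 (0.30, adjusted p = 0.0293). In these fits the lone library of a group is assumed to vary like the other group. Of 163 values of the called pathway genes, 129 kept the call and 34 lost it, with 0 reversed. The count of genes over the whole table was 1362 higher and 1638 lower. It was 2242 higher and 1203 lower with library size only, 705 higher and 983 lower with DESeq2, and ran over 683 to 1615 higher and 1039 to 1836 lower with 1 library left out; the cause was not tested.

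The labels tie same-numbered RNA libraries by their number and by neighbouring library codes, without saying what such libraries shared. The correlation of their deviations was 0.05, which with 2 libraries a group cannot show whether they shared an animal, culture or day. With the replicate number as a block 1667 genes were higher and 1901 lower, and Gabarap had a log2 difference of -0.27 with adjusted p = 4.27e-05; no other member's call changed.

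Of 80 ATAC region counts 79 stayed within 1.5 times the reported value. The exception was the in vitro positive-only count, 1 to 2 with 1 library left out (2 without positive replicate 2, since 1 positive library then suffices). All 90 differences in peaks per window stayed on the same side of the threshold, but 2 against 2 libraries could not have passed it. ATAC depth is unknown, and few counts limit Map1lc3a and Mapk8ip1.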
